A study of Mus musculus with 24 samples.

Results

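The 10 genes described here encode the parts of the cascade with which olfactory sensory neurons (OSNs) turn the binding of an odor into an electrical signal. They were chosen by their symbols among the 45706 genes of the deposited table, and are *Gnal*, *Gng13*, *Adcy3*, *Cnga2*, *Cnga4*, *Cngb1*, *Ano2*, *Slc24a4* and *Pde1c*, with *Omp*, the marker of mature OSNs, as the reference. All 10 had a row in the table and passed the filter on low counts in each comparison. Bulk RNAseq was made from the main olfactory epithelium (MOE) of untreated *WT* and *iRhom2-/-* mice. The *iRhom2-/-* line is on a mixed background of 129Sv and C57BL/6, and that of the *WT* mice is not given in the sources used here. The *iRhom2-/-* mice carry the KOMP tm1b allele of *Rhbdf2*, the gene of iRhom2, in every cell, and its endogenous promoter drives LacZ in them. They make no functional iRhom2 protein, but the first exons of the gene are still transcribed. There were 3 mice per genotype at each of 4 ages (5, 8, 10 and 30 weeks). The 12 libraries of 8 and 10 weeks could each be tied to 1 mouse. The other 12 columns of counts, 6 per genotype and numbered 7 to 12, hold the mice of 5 and 30 weeks, but which column is which age could not be told from the names, so these ages are treated as 1 stratum, 5 or 30 weeks. All mice are labelled male except the *WT* replicate 3 of 8 weeks and the replicates 3 of both genotypes at 10 weeks. Between 25333822 and 48660394 counts per library fell on genes. The labels give 1 core reference number to the mice of 8 weeks, another to those of 10 weeks and yet another to those of 5 and 30 weeks, without saying what step it stands for, so age and core reference cannot be told apart, and genotypes were compared within each.

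In the cilia of an OSN, an odorant receptor that binds its odor activates the olfactory G protein, whose alpha subunit Gαolf is encoded by *Gnal*. Gαolf stimulates adenylyl cyclase 3 (*Adcy3*), the cyclic AMP it makes opens a channel built from the subunits CNGA2, CNGA4 and CNGB1, and the calcium that enters opens the chloride channel anoctamin 2 (*Ano2*), which enlarges the current. The signal ends as the phosphodiesterase encoded by *Pde1c* degrades cyclic AMP and the exchanger encoded by *Slc24a4* pumps calcium out. OMP, the product of *Omp*, is an abundant cytosolic protein of mature OSNs.

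*Rhbdf2* was read first as a check of the labels. Its level in CPM (counts per 1000000 counts of the library, after TMM scaling) ranged from 19.3 to 25.1 in the 12 *WT* libraries and from 7.06 to 13.5 in the 12 *iRhom2-/-* libraries. The genotypes did not overlap in any stratum. Over all 24 libraries its log2 fold change was -1.08 (SE 0.0866, adjusted p = 9.78e-08 by edgeR over 20763 genes), and every *iRhom2-/-* library still held reads of it.

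The cascade genes differed widely in level. To compare genes with each other, CPM were divided by the length of the exons of each gene in kb (GENCODE vM21, GRCm38, all annotated exons merged). *Omp* stood at 2718 ± 553.9 CPM per kb (SD, n = 24). Next came *Gng13*, which encodes the small gamma subunit 13 of G proteins, at 464 ± 229.5 CPM per kb, and *Cnga2*, the principal subunit of the channel, at 236 ± 42.2 CPM per kb. Their difference was within the larger of their SDs, and *Gng13* was the higher of the pair in 21 of 24 libraries. The other 3 were the *iRhom2-/-* mice of 8 weeks, where *Gng13* (226 CPM per kb) stood below both *Cnga2* (298 CPM per kb) and *Adcy3* (253 CPM per kb). *Adcy3* stood at 190.2 ± 43.2 and *Gnal* at 159 ± 35.3 CPM per kb, which also differed by less than the larger SD, with *Adcy3* higher in 23 of 24 libraries. The channel subunit *Cnga4* reached 118 ± 27.3, *Ano2* 54.8 ± 13.5 and *Cngb1* 37.2 ± 9.99 CPM per kb, and each of these was above the next in all 24 libraries. *Pde1c*, at 15.7 ± 3.08, and *Slc24a4*, at 13.5 ± 3.29 CPM per kb, were the lowest and did not differ beyond their spread. The order of the genes depended on the length used in 1 place: with the longest transcript of each gene as its length, *Gnal* moved from rank 5 to rank 3. *Pde1c* has 14 annotated transcripts and 20067 exonic bases, and on the longest transcript its level per kb was 35.8 and not 15.7. In GRCm38 the genes that the comparisons turn on lie on several chromosomes, all annotated as protein coding. *Cnga2* spans chrX:71991849-72010218 and *Cnga4* chr7:105404568-105408742, both on the plus strand. *Omp* lies on the same chromosome as *Cnga4*, at chr7:98143359-98145502 on the minus strand. *Gng13*, the shortest of the 10 by its exons (773 bases), spans chr17:25717171-25719406. *Ano2* (chr6:125690419-126040126) and *Pde1c* (chr6:56069804-56569103, minus strand) share a chromosome, as do *Adcy3* (chr12:4133103-4213525) and *Slc24a4* (chr12:102128733-102267091).

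**Figure D1:**
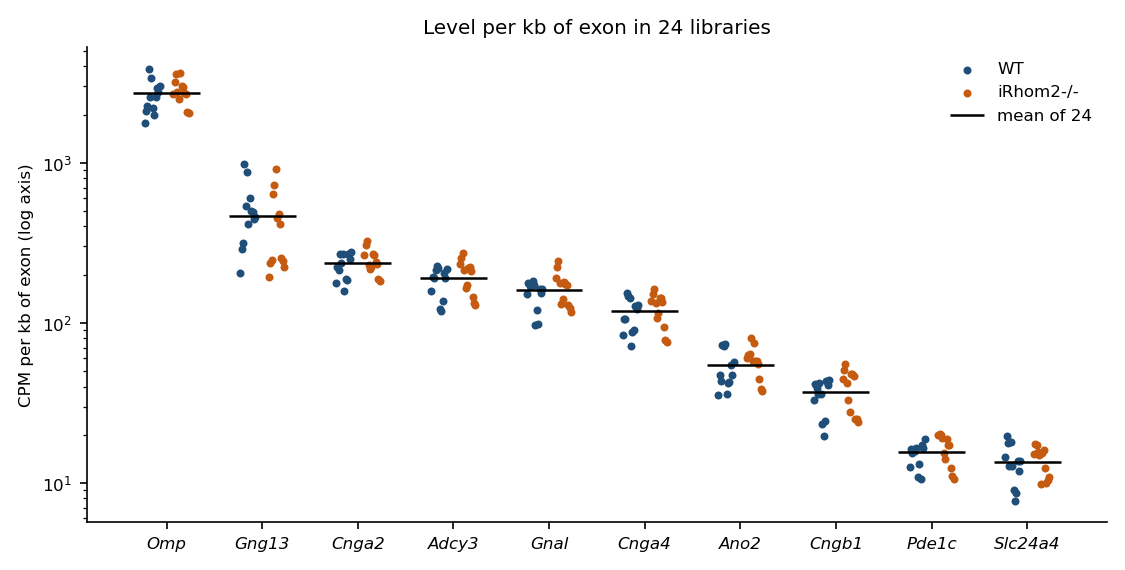
Level of the 10 genes in CPM per kb of exon on a log axis, with 1 point per library (12 *WT* and 12 *iRhom2-/-*) and a line at the mean of the 24. *Omp* lies above the others in every library, and *Pde1c* and *Slc24a4* lie lowest, at 15.7 and 13.5 CPM per kb.

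The 3 subunits of the channel were not read in equal amounts. Per kb, *Cnga4* was at 49.8% ± 5.25 of *Cnga2* (SD, n = 24, range 40.4 to 62.4%) and *Cngb1* at 15.6% ± 2.6 (range 10.4 to 19.4%). These shares rest on annotated lengths, and that of *Cngb1*, which also encodes the beta subunit of the channel in rods, covers 10 annotated transcripts. With the longest transcript as the length, *Cngb1* stood at 56.2, *Cnga4* at 126.8 and *Cnga2* at 238.4 CPM per kb. The share of *Cngb1* was then above the range given here.

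Sequence before the start of transcription was looked at because the genes rose and fell together across libraries, as described below. The table of RefSeq promoters (GRCm38.p6) had entries for 8 of the 10 genes, in 14 windows. The 250 bases before the start of transcription are shown for *Cnga2* (chrX:71991599-71991848, plus strand) and *Cnga4* (chr7:105404318-105404567, plus strand), as subunits of 1 channel, and, up to the first annotated exonic base, for the first start of *Gng13* (chr17:25716922-25717170, plus strand), as the gene that departed most from the others. Matches to CCCNNGGG are in capitals.
*Cnga2*: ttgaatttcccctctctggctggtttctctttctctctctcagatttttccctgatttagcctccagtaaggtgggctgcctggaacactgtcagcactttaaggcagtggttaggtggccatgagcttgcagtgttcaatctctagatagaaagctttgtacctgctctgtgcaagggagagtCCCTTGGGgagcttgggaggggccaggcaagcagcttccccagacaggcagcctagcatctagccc
*Cnga4*: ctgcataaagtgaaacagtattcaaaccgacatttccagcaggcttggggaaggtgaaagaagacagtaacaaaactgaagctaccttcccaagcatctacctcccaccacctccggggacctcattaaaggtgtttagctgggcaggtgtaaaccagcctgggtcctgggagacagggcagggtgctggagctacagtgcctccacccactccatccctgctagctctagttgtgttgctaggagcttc
*Gng13*: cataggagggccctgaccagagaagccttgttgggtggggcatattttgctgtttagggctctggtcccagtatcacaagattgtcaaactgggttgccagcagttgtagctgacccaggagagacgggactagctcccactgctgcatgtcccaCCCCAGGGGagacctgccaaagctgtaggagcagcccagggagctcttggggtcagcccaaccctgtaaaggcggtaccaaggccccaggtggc
CCCNNGGG is the core of the motif known for the Olf1/EBF factors of OSNs. The full motif, of 10 letters, adds a T before and an A after the core, so each match to it is also one to the core, and both read the same on both strands. It was in none of the 14 windows, and in 0.779% of all 32851 windows. The core was found 66 to 59 bases before the start of *Cnga2*, and 95 to 87 bases before that of *Gng13*, where 2 matches overlap. It was also found 129 to 122 bases before the start of *Cngb1*, 109 to 102 bases before that of *Slc24a4*, and in 1 of 3 windows of *Ano2*. With these, 5 of 8 genes held it in at least 1 window, against 13.4% of the 27025 genes in the table. Counted by window, it was in 5 of the 14, against 11.8% of all 32851 windows. *Cnga4*, *Adcy3* and *Pde1c* had no match. TAATTA, the core of many homeodomain sites, which reads the same on both strands, was in none of the 14 windows, and in 4.84% of all windows. A match is a description of letters and not of binding.

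At 8 weeks, 8 of the 10 cascade genes were read at higher levels in each *iRhom2-/-* mouse than in any *WT* mouse, as against 15.4% of all 19335 genes. At an adjusted p under 0.1, 4 rose (*Cnga4*, *Ano2*, *Cnga2* and *Pde1c*) and none fell, as against 3.24% of all genes that rose and 1.74% that fell. These 4 are 2 subunits of the channel, the chloride channel it triggers and the enzyme that removes cyclic AMP. The median log2 fold change of the 10 was 0.46, and that of all genes -0.00133. The 2 members without such a difference were *Gng13* and *Slc24a4*. All fold changes that follow are of *iRhom2-/-* over *WT*, and adjusted p-values marked edgeR are from its quasi-likelihood test, corrected by Benjamini and Hochberg over all genes tested. In bulk RNA, fewer cells of a type and less RNA per cell cannot be told apart.

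**Figure D2:**
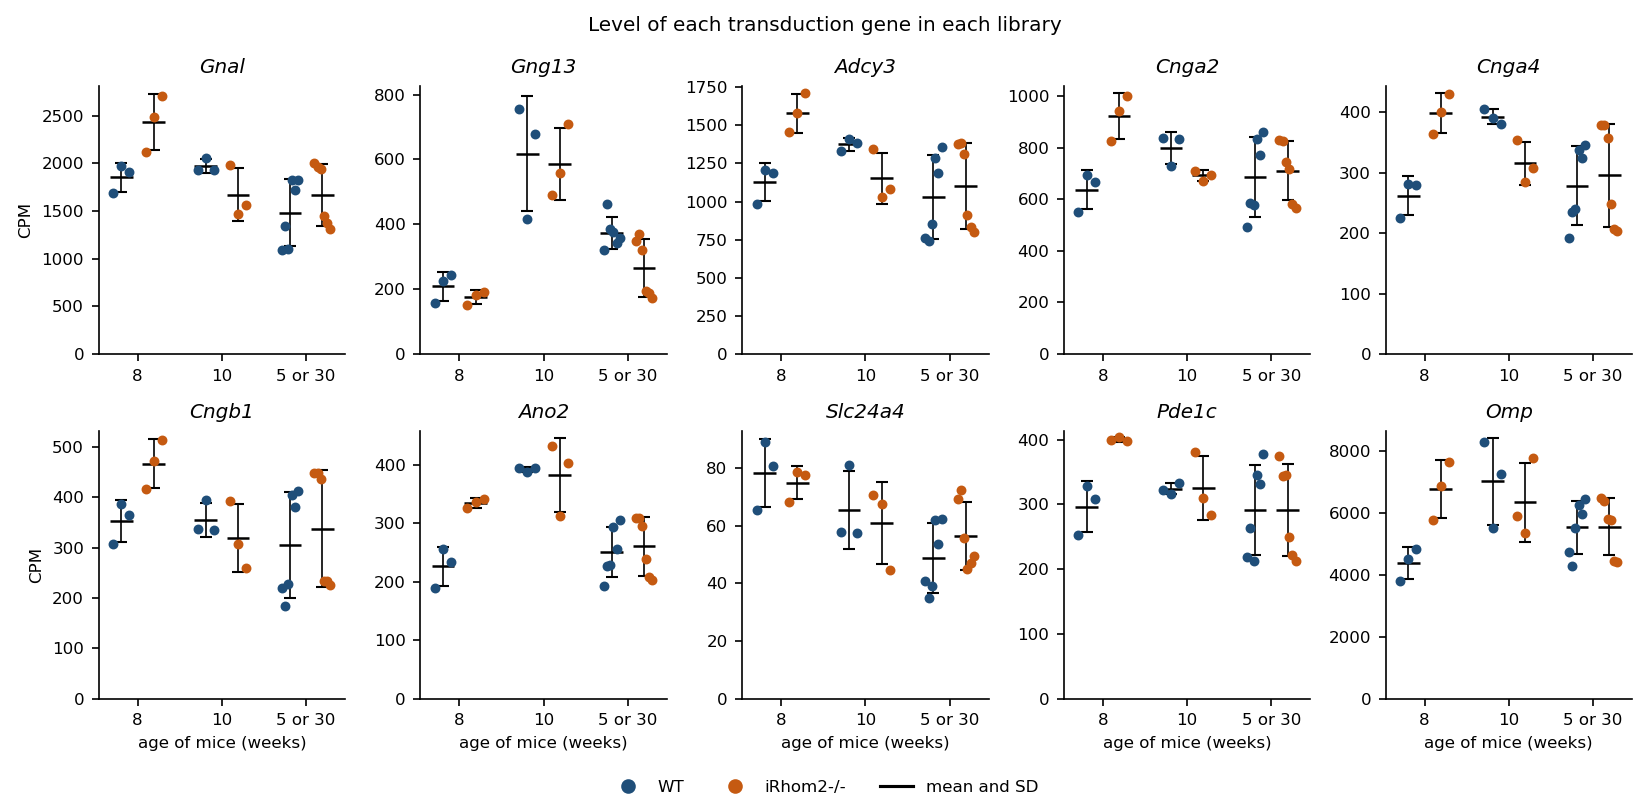
CPM of each gene in each library, by age and genotype, with the mean and SD of each group (3 mice per group at 8 and 10 weeks, 6 columns per group at 5 or 30 weeks). At 8 weeks the *iRhom2-/-* points lie above the *WT* points for all genes but *Gng13* and *Slc24a4*.

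Of the G protein subunits, *Gnal* was at 1684, 1968 and 1904 CPM in the *WT* mice of 8 weeks and at 2120, 2481 and 2702 CPM in the *iRhom2-/-* mice. The groups did not overlap, but the log2 fold change of 0.39 (SE 0.134) did not pass the test (adjusted p = 0.175, edgeR). *Gng13* was at 158, 225 and 243 CPM in *WT* and at 150.2, 183 and 191 CPM in *iRhom2-/-* mice. Here the groups overlapped and all 3 *iRhom2-/-* mice lay below the *WT* mean, with a log2 fold change of -0.26 (SE 0.168, adjusted p = 0.427, edgeR). *Adcy3*, the cyclase, was at 984, 1205 and 1190.3 CPM in *WT* and at 1453, 1578 and 1709 CPM in *iRhom2-/-* mice. The lowest *iRhom2-/-* value exceeded the highest *WT* value, and the log2 fold change of 0.49 (SE 0.124) was just outside the threshold (adjusted p = 0.102, edgeR).

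For the channel subunits, *Cnga2* was at 551, 695 and 666 CPM in *WT* and at 825, 942 and 1002 CPM in *iRhom2-/-* mice. This is a rise of 1.45-fold, with a log2 fold change of 0.53 (SE 0.125, adjusted p = 0.0848, edgeR). *Cnga4*, which speeds the closing of the channel by calcium and calmodulin, was at 225, 282 and 279.9 CPM in *WT* and at 364, 401 and 430.4 CPM in *iRhom2-/-* mice. It had the smallest adjusted p of the 10 (0.0541, edgeR), with a log2 fold change of 0.60 (SE 0.113) and a fold of 1.52. *Cngb1* was at 307, 388 and 364 CPM in *WT* and at 416, 472 and 514 CPM in *iRhom2-/-* mice. The groups did not overlap, and its log2 fold change of 0.40 (SE 0.119) did not pass (adjusted p = 0.133, edgeR). *Ano2* was at 189.7, 256 and 233 CPM in *WT* and at 326, 337 and 341 CPM in *iRhom2-/-* mice, a rise of 1.48-fold (log2 fold change 0.56, SE 0.113, adjusted p = 0.0625, edgeR).

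Of the genes that end the signal, *Pde1c* was at 253, 329 and 308 CPM in *WT* and at 400.03, 404 and 397 CPM in *iRhom2-/-* mice. It rose 1.35-fold (log2 fold change 0.43, SE 0.106, adjusted p = 0.0938, edgeR), and the *iRhom2-/-* mice lay close together (SD 3.57 CPM). *Slc24a4* was at 65.4, 88.9 and 80.6 CPM in *WT* and at 68.3, 78.6 and 77.7 CPM in *iRhom2-/-* mice. The groups overlapped wholly, and its log2 fold change was -0.067 (SE 0.116, adjusted p = 0.783, edgeR). *Omp* was at 3802, 4494 and 4832 CPM in *WT* and at 5781, 6861 and 7639 CPM in *iRhom2-/-* mice. Its fold of 1.54 was the highest of the 10, but with the wider spread of its values it did not pass (adjusted p = 0.112, edgeR).

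The 4 calls at 8 weeks depended on the settings. None of the 10 passed at an adjusted p under 0.05, with libraries scaled by their totals alone, in a single fit of all 24 libraries, or without either *WT* replicate 2, *WT* replicate 3, *iRhom2-/-* replicate 2 or *iRhom2-/-* replicate 3, whereas DESeq2 called 8 and edgeR's likelihood ratio test 5 (all higher), and in these fits the 8 genes kept a positive log2 fold change. The *WT* replicate 3 of 8 weeks is labelled female and the other mice of that age male, so its removal leaves male mice alone.

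*WT* replicate 1 of 8 weeks had the lowest CPM of that age in 9 of the 10 genes, and it stood apart in other measures. Its most abundant gene, *Bpifb9b*, a secreted protein of the nasal glands, took 5.53% of its counts, 3.24 and 1.92% in the other *WT* mice of 8 weeks, and 0.417, 0.091 and 0.174% in the *iRhom2-/-* mice. Without this library 3 of the 10 genes were called (*Cnga4*, *Ano2* and *Pde1c*), and 3 (*Cnga4*, *Ano2* and *Cnga2*) with *Bpifb9b* left out of the counts. The summed level of 6 lymphocyte markers, of which *Cd79a* was the most abundant, was 41.8 CPM in this library, 9.98 and 11.5 CPM in the other *WT* mice, and 7.28, 8.07 and 4.58 CPM in the *iRhom2-/-* mice. The log2 fold change of all 6 was below 0 at 8 weeks (median -2.14), 1 of them, *Cd8a*, fell at the threshold, and none was at 0. The summed level of 7 macrophage markers, of which *Csf1r* was the most abundant, was 276, 124 and 142 CPM in *WT* and 150.1, 82.4 and 105 CPM in *iRhom2-/-* mice, and the log2 fold change of all 7 was below 0 (median -0.73), none of which passed. The log2 fold changes of 3 genes of ensheathing glia, the cells that wrap the axons of OSNs, were above 0 at this age, at 0.47 for *Fabp7*, 0.32 for *S100b* and 0.12 for *Sox10*, and none passed (adjusted p from 0.113 to 0.64, edgeR). The part of these cells in the higher levels of the cascade genes was not tested.

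The 22 other genes of the pathway chosen for comparison (other G protein subunits, chaperones of receptors and of Gαolf, the phosphodiesterase *Pde4a*, kinases, an arrestin, calmodulins, ion transporters, *Creb1*, *Stoml3* and genes of the cilium) were all measured. At 8 weeks 5 rose and none fell, with a median log2 fold change of 0.29. *Ric8b*, which encodes the chaperone and exchange factor of Gαolf, had a log2 fold change of 0.66 (SE 0.107, adjusted p = 0.0421, edgeR). *Gfy*, which encodes goofy, a Golgi protein that OSNs need to bring *Adcy3* to the cilia, had one of 0.57 (SE 0.124, adjusted p = 0.0722, edgeR). The phosphodiesterase *Pde4a* (0.50, SE 0.0954, adjusted p = 0.0556, edgeR), *Bbs4*, a part of the ciliary transport complex (0.46, SE 0.102, adjusted p = 0.0772, edgeR), and *Prkaca*, the catalytic subunit of protein kinase A (0.35, SE 0.0554, adjusted p = 0.0394, edgeR), made up the 5. None of the 22 passed at 10 weeks (median -0.061), at 5 or 30 weeks (median 0.042) or over all strata (median 0.05). The 3 with the smallest p over all strata were *Prkaca* (0.18, adjusted p = 0.118), *Pde4a* (0.28, adjusted p = 0.22) and *Rtp1*, which encodes a chaperone of odorant receptors (0.14, adjusted p = 0.278, edgeR).

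At 10 weeks none of the 10 cascade genes passed the test, as against 0.197% of all 18764 genes in either direction, and 1 had an unadjusted p under 0.05, as against 7.79% of all genes. The median log2 fold change was -0.14, and 9 of 10 were below 0 (all 10 with libraries scaled by their totals alone, where *Pde1c* was at -0.0067). *Cnga4* was at 406, 390.4 and 381 CPM in *WT* and at 355, 285 and 308 CPM in *iRhom2-/-* mice. All *iRhom2-/-* values lay below all *WT* values, and its log2 fold change was -0.30 (SE 0.121, adjusted p = 0.612, edgeR). *Cnga2* was at 838, 727 and 832 CPM in *WT* and at 709.8, 670.1 and 695 CPM in *iRhom2-/-* mice, again without overlap (log2 fold change -0.19, SE 0.122, adjusted p = 0.793, edgeR). These were the 2 genes of the 10 that were lower without overlap, as against 7.11% of all genes. *Adcy3* was at 1330.0, 1411 and 1383 CPM in *WT* and at 1344, 1028 and 1082 CPM in *iRhom2-/-* mice, where 1 *iRhom2-/-* mouse lay within the *WT* range (log2 fold change -0.24, SE 0.14, adjusted p = 0.765, edgeR). *Omp* was at 8300, 5514 and 7236 CPM in *WT* and at 5890, 5340 and 7775 CPM in *iRhom2-/-* mice, and the groups overlapped widely (log2 fold change -0.13, SE 0.209, adjusted p = 0.932, edgeR). The other log2 fold changes were -0.22 for *Gnal*, -0.14 for *Cngb1*, -0.087 for *Slc24a4*, -0.06 for *Gng13*, -0.022 for *Ano2* and 0.017 for *Pde1c*. The summed levels of markers of some other cells also lay apart at this age, though none of the genes of these lists passed. The log2 fold changes of 6 immature OSN genes were all above 0 (median 0.225), but their summed levels overlapped. The same held for 5 genes of respiratory ciliated cells (median 0.304). The summed level of 7 genes of sustentacular cells and glands, of which *Cyp2a5* was the most abundant, was 28870, 25820 and 28200 CPM in *WT* and 24470, 23080 and 22450 CPM in *iRhom2-/-* mice, lower without overlap, and the log2 fold change of all 7 was below 0 (median -0.19). That of 9 genes of basal cells and progenitors, led by *Krt5*, was 210.0, 217.5 and 205 CPM in *WT* and 272, 267 and 258 CPM in *iRhom2-/-* mice, higher without overlap, with 8 of 9 log2 fold changes above 0 (median 0.25). Those of the same 3 genes of ensheathing glia were all below 0 here, at -0.83 for *Fabp7*, -0.51 for *S100b* and -0.18 for *Sox10* (adjusted p from 0.306 to 0.78, edgeR). *iRhom2-/-* replicate 2 stood apart: *Bpifb9b* took 13.6% of its counts, and the summed level of 4 erythrocyte genes, led by *Hbb-bs*, was 4510 CPM in it and 373 to 1170 CPM in the other 5 libraries. None of the genes of these lists was at 0 in any library of this age. Without this library the log2 fold changes of *Cnga4* and *Cnga2* were -0.24 and -0.18, and that of *Ano2* turned to 0.095. The part of these cells in the levels of the cascade genes was not tested.

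At 5 or 30 weeks none of the 10 passed, as against 1.07% of all 18481 genes. *Gng13* ranged from 321 to 464 CPM in *WT* (median 367) and from 172 to 371 CPM in *iRhom2-/-* columns (median 257). The groups overlapped, but all 6 *iRhom2-/-* columns lay below the *WT* mean, and the log2 fold change was -0.52 (SE 0.192, unadjusted p = 0.0186, adjusted p = 0.26, edgeR). The *iRhom2-/-* columns fell into 2 sets: columns 7 to 9 were at 348, 371 and 319.5 CPM, within or just below the range of *WT*, and columns 10 to 12 at 195, 189 and 172 CPM, below all *WT* columns, and no column lay near the median. By a two-sided exact permutation test of its mean level, which takes the 6 as 1 group, the p was 0.0346. The log2 fold changes of the other 9 lay between -0.018 (*Pde1c*) and 0.19 (*Slc24a4*).

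**Figure D3:**
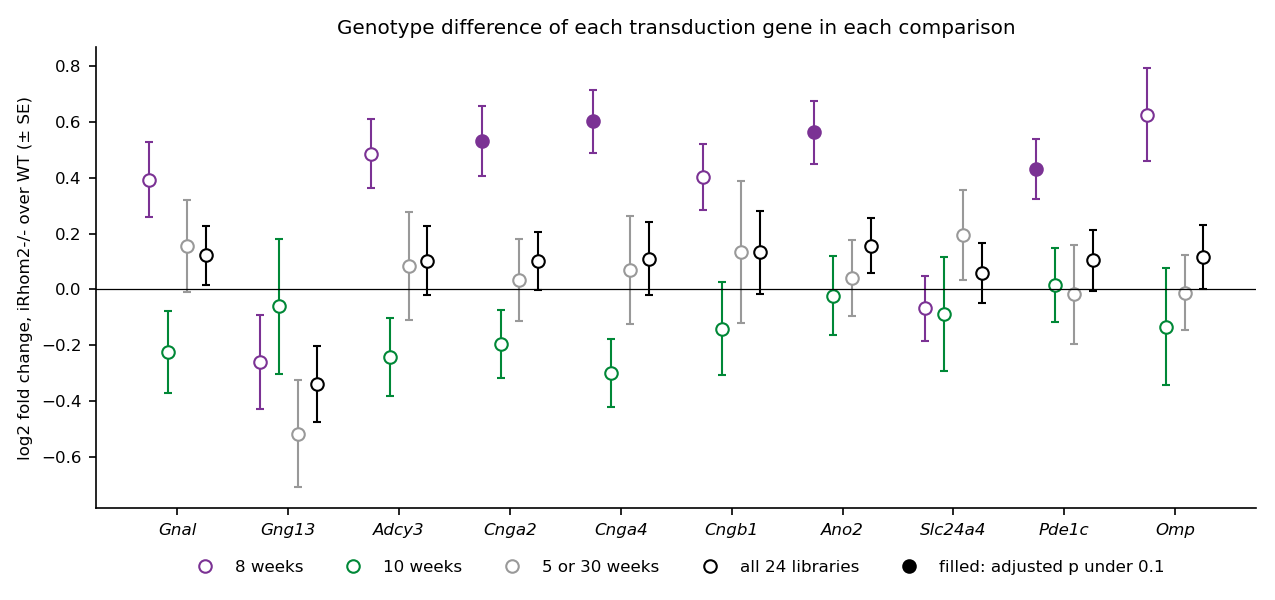
Log2 fold change of *iRhom2-/-* over *WT* for each gene at 8 weeks, 10 weeks and 5 or 30 weeks, with its SE as the bar. At 8 weeks 8 genes lie between 0.39 and 0.62, and at 10 weeks 9 lie below 0.

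Over all 24 libraries, with the strata as a term, none of the 10 passed, as against 1.97% of all 20763 genes. *Gng13* had the smallest p of the 10, with a log2 fold change of -0.34 (SE 0.136, unadjusted p = 0.0205, adjusted p = 0.289, edgeR), and lay below the *WT* mean of its stratum in 11 of 12 *iRhom2-/-* libraries. The other 9 lay between 0.059 (*Slc24a4*) and 0.16 (*Ano2*). Whether the effect of genotype differed between strata was tested by the interaction. None of the 10 passed, as against 0.0482% of all genes, and 4 had an unadjusted p under 0.05, as against 12.7% of all genes. For 8 against 10 weeks alone, *Cnga4* differed by -0.91 on the log2 scale (SE 0.175, adjusted p = 0.14, edgeR) and *Cnga2* by -0.73 (SE 0.178, adjusted p = 0.203, edgeR), neither of which passed, as against 0.0799% of all 20030 genes that did.

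The level of each gene was also set against that of *Omp* in the same library, as a ratio that does not depend on how libraries are scaled. Ratios were compared by limma on log2 CPM. At 8 weeks *Gng13* was at 4.16, 5.00 and 5.04% of *Omp* in *WT* and at 2.6, 2.67 and 2.5% in *iRhom2-/-* mice. All *iRhom2-/-* values lay below all *WT* values, and the log2 ratio fell by 0.86 (SE 0.145, adjusted p = 0.005, limma). *Slc24a4* was at 1.72, 1.98 and 1.67% in *WT* and at 1.18, 1.15 and 1.02% in *iRhom2-/-* mice, and its log2 ratio fell by 0.68 (SE 0.153, adjusted p = 0.00917, limma). Since *Omp* itself was read higher, 70.2% of all 19334 genes had a lower ratio by this test, so these 2 calls set *Gng13* and *Slc24a4* with most other genes and not apart from them. The log2 ratios of the other 7 were all below 0, between -0.23 and -0.018, none of which passed (smallest adjusted p = 0.181, limma). *Gnal* was at 44.3, 43.8 and 39.4% of *Omp* in *WT* and at 36.7, 36.2 and 35.4% in *iRhom2-/-* mice, lower without overlap. *Cngb1*, at 8.08, 8.63 and 7.54% in *WT* and 7.2, 6.88 and 6.73% in *iRhom2-/-* mice, did not overlap either, and for the other 5 genes the groups overlapped. Of all genes, 67.3% had ratios that were lower without overlap, so this does not set *Gnal* and *Cngb1* apart. With the 4 other genes of mature OSNs (*Stoml3*, *Rtp1*, *Rtp2* and *Gfy*) as the denominator, *Gng13* fell by 0.69 (adjusted p = 0.0113, limma) and *Slc24a4* by 0.50 (adjusted p = 0.012, limma), as did 57.6% of all genes.

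**Figure D4:**
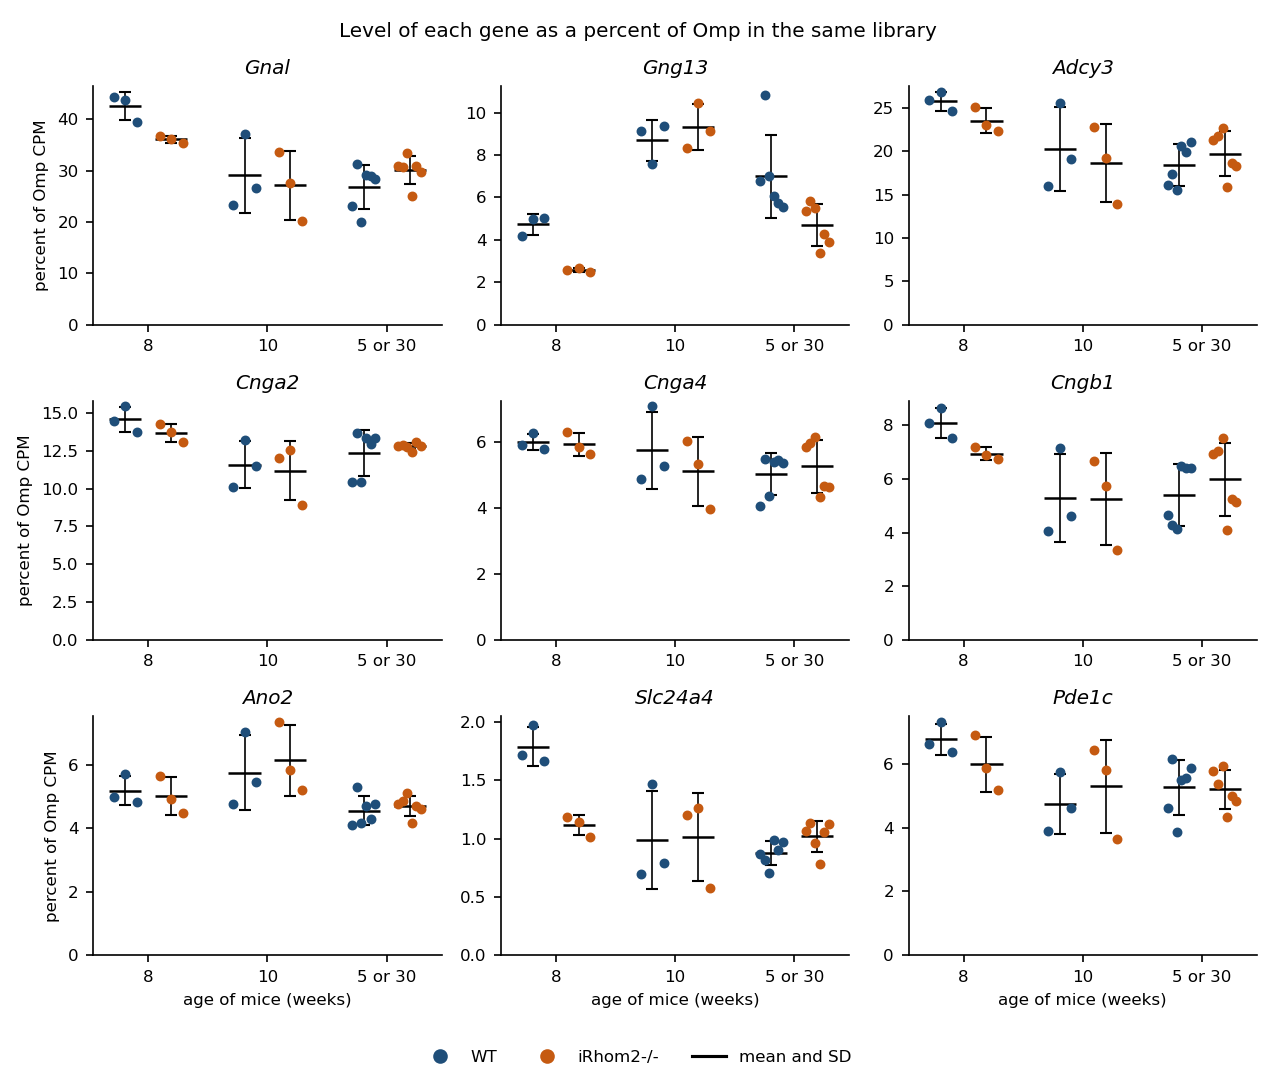
Level of the 9 other genes as a percent of *Omp* in the same library, by age and genotype. At 8 weeks the *iRhom2-/-* points of *Gng13* (2.5 to 2.67%) lie below those of *WT* (4.16 to 5.04%), and those of *Slc24a4* likewise.

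At 10 weeks none of the 9 ratios passed, as against 0.112% of all genes, and *Gng13* was at 8.69% ± 0.97 of *Omp* in *WT* and 9.3% ± 1.08 in *iRhom2-/-* mice (SD, n = 3). At 5 or 30 weeks none passed either, as against 0.0758% of all genes. There *Gng13* was at 6.99% ± 1.97 in *WT* and 4.71% ± 0.985 in *iRhom2-/-* columns (SD, n = 6), a fall of 0.56 on the log2 scale (SE 0.175, adjusted p = 0.702, limma). The exact permutation p, which takes the 6 columns as 1 group, was 0.00866. *iRhom2-/-* columns 7 to 9 were at 5.37, 5.81 and 5.50%, within or just below the *WT* range of 5.54 to 10.8%. *iRhom2-/-* columns 10 to 12 were at 3.39, 4.26 and 3.91%, below all *WT* columns. Over all strata none passed, as against 0.535% of all genes, and *Gng13* fell by 0.47 (SE 0.126, adjusted p = 0.135, limma). With the 4 other genes of mature OSNs as denominator its fall of 0.46 passed (adjusted p = 0.0691, limma), as did 1.1% of all genes that fell. The log2 ratio of *Slc24a4* differed by -0.052 over all strata, and those of the other 7 genes by between -0.016 and 0.037, a range that pools the lower ratios of 8 weeks with those of the other ages. *Cnga2*, for example, was at 12.4% ± 1.5 of *Omp* in *WT* and 12.8% ± 0.207 in *iRhom2-/-* columns at 5 or 30 weeks (SD, n = 6).

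To see which genes moved with the cascade from library to library, each gene was set against the mean log2 level of the 10, after centring on its stratum, over 24 libraries. The measure is the SD of the difference, and its median over 11548 genes was 0.28. The members are part of the mean they were set against. *Adcy3* ranked 3, *Cnga2* 6, *Pde1c* 7, *Cnga4* 9, *Ano2* 15 and *Gnal* 16. *Omp* (rank 387, SD 0.17), *Cngb1* (rank 450, SD 0.175) and *Slc24a4* (rank 1584, SD 0.214) were farther from the mean, and *Gng13* the farthest (rank 9359, SD 0.367). The 5 nearest genes outside the 10 were *Stom* (SD 0.0618), *Stoml3* (0.078), *Togaram2* (0.0827), *Gramd1c* (0.0839) and *Plekhb1* (0.0932). *Stoml3*, which encodes a stomatin-like protein, is known from the cilia of OSNs. At 8 weeks the log2 fold changes of these 5 lay between 0.43 (*Togaram2*) and 0.50 (*Stom*). They lay between -0.19 (*Stoml3*) and -0.059 (*Plekhb1*) at 10 weeks, and between -0.080 (*Plekhb1*) and 0.10 (*Togaram2*) at 5 or 30 weeks. The choice of these 5 by likeness partly fixes such values, since levels were centred on the stratum and not on the genotype.

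**Figure D5:**
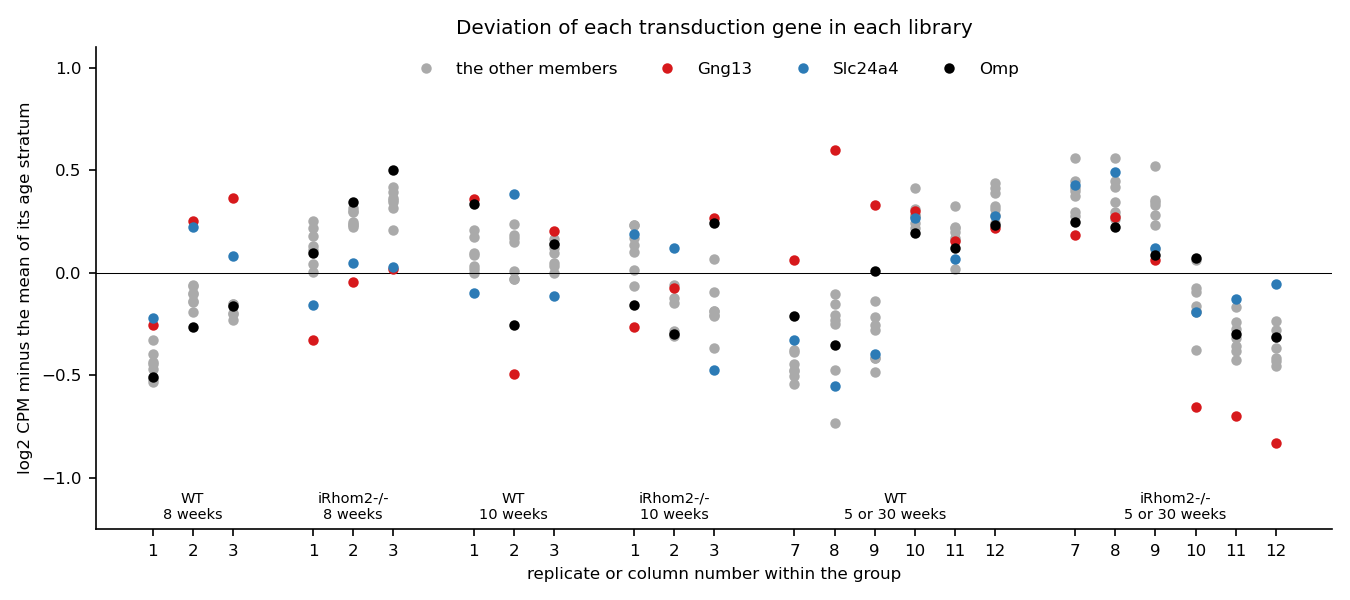
Level of each of the 10 genes in each of the 24 libraries relative to its own mean, on a log2 scale. Most genes move together from library to library, and *Gng13* departs from them the most.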

How the data were processed

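RNA of the MOE of 24 mice was made into directional poly(A) libraries and sequenced. Per the study, the authors aligned reads with STAR and counted them with RSEM by the nf-core pipeline on GRCm38, and the deposited table holds an estimated count per gene and library as whole numbers. Whether the authors rounded them is not stated. The deposited log2 fold change, p-value and other columns of the authors' own comparison were not used. Columns were tied to mice by name, and 12 could be tied only to a genotype. No per-sample column was left unused. Depth ran from 25333822 to 48660394 counts. Genes kept by filterByExpr were tested with edgeR 4.0.16 (R 4.3.3, TMM, quasi-likelihood F test) within each stratum, and over all with stratum as a term, at a Benjamini-Hochberg adjusted p under 0.1. Ratios to *Omp* were log2 CPM (prior count of 2) tested with limma 3.58.1 and by exact permutation, where 3 against 3 cannot go below p = 0.1. DESeq2 1.42.0, other scalings, filters and thresholds, single sexes, and leaving out each library were tried as alternatives. On simulated data with 200 genes changed 2-fold, the test found 166 at 8 weeks (18962 genes, 26 false calls), 156 at 10 weeks (18467 genes, 28 false), 187 at 5 or 30 weeks (18269 genes, 10 false) and 193 over all strata (20472 genes, 27 false). The highest fold of the 10 genes was 1.54 (*Omp* at 8 weeks), so these rates do not tell how often differences of their size are found. No 2 libraries of a group were duplicates (42 pairs, smallest chi-square per degree of freedom 12.8). P-values set a difference against the spread between these mice, which at 5 or 30 weeks includes any difference between those ages.

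The 10 genes, the lists and the tests were chosen with earlier results of these data known. Genes named are the 10, *Rhbdf2*, those of the 22 other pathway genes that passed in any comparison or had the 3 smallest p over all strata, and the 5 with the most similar profile; *Cd8a* and others beside them were named after their values were seen. Of the other marker lists at 8 weeks, 1 of 4 other mature OSN genes rose (*Gfy*, median 0.43) and 1 of 6 immature OSN genes (*Crmp1*, 0.11), and none passed of 9 of basal cells (-0.23), 7 of sustentacular cells and glands (0.0073), 5 of respiratory ciliated cells (0.056), 4 of erythrocytes (-0.47), 3 of the vomeronasal organ (0.16) and 2 tested of 3 of necklace OSNs (0.78), medians being log2 fold changes. Of a list of ensheathing glia, 2 genes are not reported here, and the other 3 are given beside the results at 8 and 10 weeks.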

Additional observations from a re-analysis of the deposited data

Results flagged for a closer look

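*Gng13* was at 10.8% of *Omp* in *WT* column 8 of 5 or 30 weeks, far from the nearest of the other 5 (7.01%), with a gap of 0.723 of the range of the group against a critical 0.625. Of 42 sets of 6 columns looked at, 1 had such a library. A set is 1 gene (the 10 or *Rhbdf2*) in 1 genotype at 5 or 30 weeks, in CPM or as a percent of *Omp*. Chance gives about 5% of independent sets, and these share libraries. Groups of 3 mice were not looked at. For *Cnga4*, *Cnga2* and *Adcy3* the *WT* mean was exceeded by all 3 *iRhom2-/-* mice at 8 weeks and by none at 10 weeks. The log2 fold change at 10 weeks minus that at 8 weeks was -0.91 for *Cnga4*, -0.73 for *Cnga2* and -0.73 for *Adcy3*. By edgeR's test of that difference none passed (adjusted p = 0.14, 0.203 and 0.212).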

How the results depend on the processing

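At 8 weeks 4 of the 10 genes passed, 8 with DESeq2, 7 with a replicate block, and 0 with libraries scaled by their totals alone, at an adjusted p under 0.05, in male mice alone, or in 1 fit of all 24 libraries. Leaving out 1 library gave 0 to 5: 3 without *WT* replicate 1, 5 without *iRhom2-/-* replicate 1 and 0 without any of the other 4. Over all genes the same settings called 2195 (DESeq2), 1454 (replicate block), 393 (totals), 270 (0.05), 132 (males) and 404 (24 libraries), against 962. Same-numbered mice deviated together weakly at most (r of 0.116, 0.0333 and 0.00257 at 8 weeks, and 0.011, 0.216 and 0.111 at 10 weeks). The highest r of each *WT* mouse with another number was -0.0373, 0.117 and 0.0164 at 8 weeks. At 10 weeks it was 0.146, 0.0309 and -0.0506. No label pairs the mice, so the numbers are not taken as pairs, though pairing is not excluded. For the ratio to *Omp* at 8 weeks 2 passed, and 4 with the replicate block. Over all strata 0 passed, 1 with the 4 other OSN genes as denominator, and 0 to 1 without 1 library (1 without *WT* or *iRhom2-/-* replicate 2 of 10 weeks). The sign turned with totals alone for *Pde1c* at 10 weeks (-0.0067) and 5 or 30 weeks (0.012) and *Omp* at 5 or 30 weeks (0.022), for *Slc24a4* over all strata with 8 and 10 weeks only (-0.073, or -0.074 with the replicate block), and for its ratio at 10 weeks with the other denominator (-0.0099). Without 1 library, signs turned within these ranges: at 10 weeks *Ano2* -0.12 to 0.095, *Gng13* -0.28 to 0.11, *Omp* -0.32 to 2.95e-04, *Pde1c* -0.12 to 0.095 and *Slc24a4* -0.21 to 0.092; at 5 or 30 weeks *Ano2* -0.021 to 0.11, *Cnga2* -0.042 to 0.11, *Cnga4* -0.016 to 0.16, *Omp* -0.071 to 0.052 and *Pde1c* -0.10 to 0.069; at 8 weeks *Slc24a4* -0.19 to 0.034; and the *Slc24a4* ratio -0.18 to 0.40 at 10 weeks and -0.10 to 0.020 over all strata. The cause was not tested. The 2 added alternatives (without *Bpifb9b*, and the longest transcript as length) were chosen after seeing the data. Each of the 10 genes had at least 1020 counts in every library.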

Other observations

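The columns of 5 or 30 weeks fell into 2 sets of 3 in each genotype, with no label to say what they are. *Gng13* fell into them in *iRhom2-/-* columns alone, as given above. *Cngb1* was at 219, 184 and 228 CPM in *WT* columns 7 to 9 and at 406, 382 and 413 CPM in columns 10 to 12, and at 448, 449 and 436 CPM in *iRhom2-/-* columns 7 to 9 and 235, 234 and 226 CPM in columns 10 to 12. In *WT*, *Adcy3* was at 762, 744 and 854 CPM in columns 7 to 9 and then 1284, 1187 and 1356 CPM. In *iRhom2-/-* columns it was at 1377, 1385 and 1314 CPM and then 911, 830 and 803 CPM. *Omp*, *Gnal*, *Cnga2*, *Cnga4*, *Ano2*, *Pde1c* and *Slc24a4* split the same way, without overlap of the 2 sets in either genotype. *Gap43*, a marker of immature OSNs, ran the other way, at 162, 143 and 211 CPM and then 63.1, 67.3 and 67.2 CPM in *WT*, and at 66.0, 75.9 and 49.1 CPM and then 245, 214 and 200 CPM in *iRhom2-/-* columns.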
